A study of Mus musculus with 28 samples.

Results

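The immunoproteasome and PA28 subunit genes were examined in microglia sorted from single mouse retinas before and after endotoxin-induced uveitis (EIU). The members are 5 genes chosen by symbol, Psmb8, Psmb9, Psmb10, Psme1 and Psme2, out of 40021 gene rows. All 5 passed the filter on low values and were among the 13164 genes tested. The mRNA-Seq series holds 28 retinas, of which 10 were naïve. EIU was induced by injecting 10 ng lipopolysaccharide (LPS), a component of bacterial outer membranes that activates innate immune cells, into the vitreous, and 6 retinas were taken 4 h later, 5 after 18 h and 7 after 2 weeks.

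Every retina came from a male heterozygous Cx3cr1CreER:R26-tdTomato mouse. In this line tamoxifen activates a Cre recombinase expressed from the promoter of Cx3cr1, the fractalkine receptor, and Cre in turn switches on the red reporter tdTomato in microglia and in other cells that use this promoter. All animals, naïve ones included, received topical tamoxifen for 3 days at 4 to 5 weeks of age, and LPS was given 4 weeks later. Naïve retinas were not injected, so the injection and the LPS cannot be told apart. Live cells bright for tdTomato were sorted, and each retina was 1 library. The labels do not say which left and right retinas came from the same mouse, so p-values measure the spread between retinas. If some retinas share a mouse, they are not independent and the p-values may be too small. The retinas were collected in 2 experiments, with 6, 3, 4 and 4 retinas in experiment 1 and 4, 3, 1 and 3 in experiment 2 for naïve, 4 h, 18 h and 2 weeks respectively.

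The proteasome degrades ubiquitin-tagged proteins in the 20S core particle, whose catalytic beta subunits cut the chain. Interferons and other inflammatory signals are known to raise 3 alternative catalytic subunits, PSMB8 (LMP7, beta5i), PSMB9 (LMP2, beta1i) and PSMB10 (MECL-1, beta2i), which take the places of PSMB5, PSMB6 and PSMB7 when a new core is assembled and form the immunoproteasome. PSME1 (PA28 alpha) and PSME2 (PA28 beta) form a ring that opens the core without ATP, in contrast to the 19S cap, which unfolds ubiquitin-tagged substrates. Both assemblies are best known for producing peptides that MHC class I molecules present.

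On GRCm38, Psmb8 (ENSMUSG00000024338) lies at chr17:34197721-34201454 on the plus strand and Psmb9 (ENSMUSG00000096727) at chr17:34181987-34187764 on the minus strand, both inside the MHC class II region beside the peptide transporter genes. Psmb9 and Tap1 are read in opposite directions from RefSeq starts with 225 bases between them. Psmb10 (ENSMUSG00000031897) lies at chr8:105935735-105938444, minus strand. Psme1 (ENSMUSG00000022216, plus strand) and Psme2 (ENSMUSG00000079197, minus strand) are neighbours on chromosome 14, at chr14:55578123-55581529 and chr14:55587441-55591113.

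Because several members rose together at 18 h, their RefSeq promoter windows (GRCm38.p6, 250 bases before to 50 bases after the start) were searched on both strands for 3 motifs of inflammatory transcription factors. Windows were found for all 5 genes, 6 in all, since Psme2 has 2. A motif stood in the Psmb8 and Psme1 windows and in none of Psmb9, Psmb10 and Psme2. The core of the gamma-activated site, an element of interferon-responsive promoters, TTCNNNGAA, stood in the Psmb8 window alone, with its first base 97 bases upstream of the start. It stands in 8.3% of all 32851 promoter windows. The core of the interferon-stimulated response element, which is GAAA followed by any pair of bases and GAAA again, stood on the reverse strand in the Psme1 window alone, with its first base 9 bases downstream of the start, and stands in 3.44% of all windows. The NF-kappa B consensus, held by 4.51% of all windows, was in none of the 6. A match is a string of letters and not a shown binding site. The windows below show both matches in capitals with 30 bases in all, and 150 bases directly upstream of the first annotated exon of Psme2, the member with the largest change, which hold none of the 3 motifs. The Psmb8 window is chr17:34198087-34198116 (plus strand), the Psme1 window chr14:55578493-55578522 (plus strand) and the Psme2 stretch chr14:55591114-55591263 (minus strand). The matched letters of Psmb8 and Psme1 lie within annotated exons of these genes. All 250 upstream bases of the Psmb8 and Psmb9 windows lie within annotated exons. For Psmb10 52 of them do, for Psme1 139, and for the Psme2 windows 12 and 92. Bases upstream of the windows were not searched, so a missing motif speaks for the window only.
Psmb8: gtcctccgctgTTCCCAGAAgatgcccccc
Psme1: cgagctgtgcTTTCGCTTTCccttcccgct
Psme2: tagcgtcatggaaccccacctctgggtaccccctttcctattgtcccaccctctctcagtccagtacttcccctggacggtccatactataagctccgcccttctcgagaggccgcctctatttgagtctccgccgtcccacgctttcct

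The deposited values are RPKM, in which reads are divided by transcript length and by the size of the library, and retinas had 7510000 to 19700000 alignments. Summed RPKM still differed between groups. It ran from 298434 to 404838 in naïve retinas and from 394112 to 509221 at 4 h. At 18 h it ran from 441474 to 509597, and at 2 weeks from 338164 to 396037. At the median annotated transcript length of each member, 1 read is worth between 0.0411 and 0.225 RPKM, so Psmb8, Psmb10, Psme1 and Psme2 rested on at least 91.3 reads in every retina, as far as RPKM allows an estimate. Psmb9 rested on about 0.814 reads in 18 h retina 4. In 7 retinas, all of experiment 1, between 6552 and 8562 genes reached an RPKM of 1, against 9331 to 11825 in the other 21. They comprise 4 naïve retinas (numbers 3 to 6), 4 h retina 2, 18 h retina 4 and 2-week retina 1. The text below gives results with and without them where they matter, an alternative chosen after seeing the data. Leaving them out also shifts the balance of the experiments, since 4 of the 6 naïve retinas of experiment 1 drop out and none of experiment 2.

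The 10 microglia markers were detected at every time point, and their summed RPKM ran from 6692 to 13437 in naïve retinas and from 2178 to 6818 at 4 h, while the ranges were 3926 to 6237 at 18 h and 7892 to 13030 at 2 weeks. The 9 lymphocyte markers summed to at most 0.0806 in naïve retinas and to 1.63, 26.6, 1.62, 256 and 59.9 in 18 h retinas 1 to 5. Gzma, a granzyme of cytotoxic lymphocytes, had 0, 23.0, 0, 238 and 54.7 RPKM in these retinas. The 9 neutrophil markers summed to at most 0.200 in naïve retinas and to 1.08, 12.7, 17.1, 0 and 0.885 in the same 18 h retinas. The 6 monocyte markers summed to at most 28.5 in naïve retinas and 32.9 at 18 h, and members of this list differed in direction: the highest value of F13a1 was 28.4 in naïve retinas and 4.29 at 18 h, whereas that of Plac8 was 2.86 and 27.5, and Ly6c2, Ccr2 and Chil3 reached an RPKM of 1 only at 18 h, in 2, 1 and 1 retinas. The 6 rod photoreceptor markers had a median sum of 1992 in naïve and 2711 in 4 h retinas, against 1460 at 18 h and 2732 at 2 weeks. The 4 Müller glia markers had medians of 129, 90.0, 45.4 and 129 at the same times, and the 4 erythrocyte markers summed to at most 43.4, 735, 67.9 and 41.9. The part of these cell types in the differences below was not tested. In a sorted bulk sample, fewer cells of a type and less RNA per cell cannot be told apart.

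In naïve microglia the 5 mRNAs differed in abundance per unit of length. Psme2 had 97.3 ± 38.4 RPKM (SD, n = 10), Psmb8 78.9 ± 16.0, Psme1 64.0 ± 17.7, Psmb10 35.9 ± 13.4 and Psmb9 11.9 ± 5.17. The ranges of Psme2 (26.6 to 147), Psmb8 (57.1 to 107) and Psme1 (32.5 to 88.2) overlapped, whereas the highest naïve value of Psmb9, 17.3, lay below the lowest of those 3 genes. All 5 mRNAs were detected in each naïve retina.

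**Figure D1:**
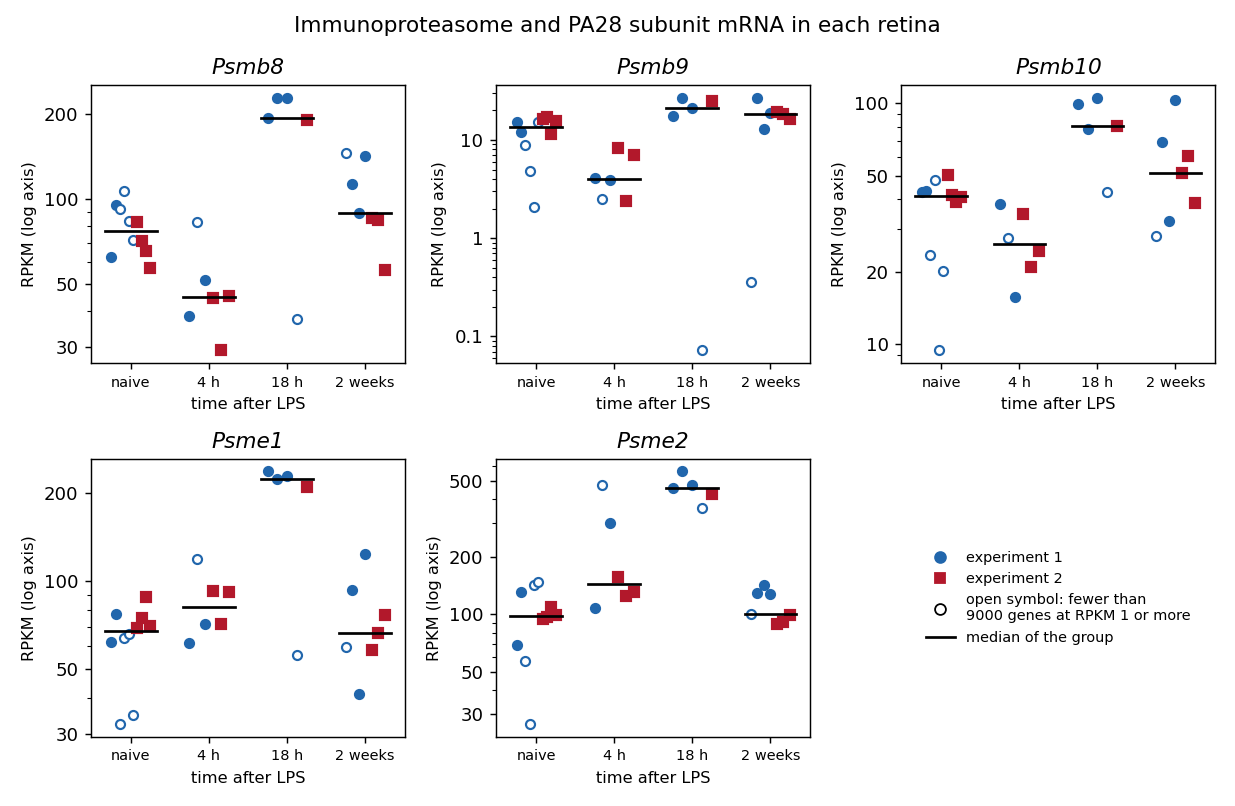
RPKM of the 5 genes in each of 28 retinas (logarithmic y axis) by time after LPS. Circles are experiment 1, squares experiment 2, open symbols the 7 retinas with few genes detected, and lines are group medians. The 18 h medians are the highest for all 5 genes, and 18 h retina 4, an open circle, lies below the other 18 h retinas in every panel.

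At 18 h, the peak of cell infiltration in this model, PA28 and 1 immunoproteasome subunit were up-regulated against naïve microglia. Both PA28 genes rose, Psme2 by 2.34 and Psme1 by 1.46 on the log2(RPKM + 1) scale, and Psmb10 rose by 1.23. Psmb8 and Psmb9 did not pass the criteria with all retinas on the log2 scale. Psmb8 passed without 1 of the 5 retinas, and also with all retinas on untransformed RPKM. Genes were called differentially expressed (DEGs) where limma gave an adjusted p no higher than 0.05 together with a change of 2-fold or more. At 18 h, 4.69% of all tested genes met both criteria, 2.84% upwards and 1.85% downwards. Thus 3 of 5 members were called, all upwards, with a median log2 difference of 1.23 over the 5 members against -0.076 over all genes tested.

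Psme2, the beta subunit of PA28, had 458, 562, 476, 359 and 428 RPKM in 18 h retinas 1 to 5, against 26.6 to 147 (median 97.8) in naïve retinas. All 5 values lay above all 10 naïve values, and the mean rose 4.69-fold. The log2 difference was 2.34 with a standard error (SE) of 0.35 (adjusted p = 4.2e-05, limma), and it remained past the criteria in each of the 17 alternative settings and with each retina left out. Psme2b (ENSMUSG00000078153, chr11:48945354-48946190, minus strand), a single-exon near-identical copy, was also called, at 36.4 ± 7.40 RPKM against 12.5 ± 4.90 (log2 difference 1.59, adjusted p = 0.014, limma). The counting method can divide reads between Psme2 and this copy, so the exact level of either is uncertain.

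Psme1, the alpha subunit of the same ring, had 238, 224, 229, 55.9 and 211 RPKM in 18 h retinas 1 to 5, against 32.5 to 88.2 (median 67.6) in naïve retinas. Retinas 1, 2, 3 and 5 lay above every naïve retina and retina 4 lay within the naïve range. The log2 difference was 1.46 (SE 0.33, adjusted p = 0.0057, limma), and 1.86 without retina 4. Psme2 exceeded Psme1 in all 5 retinas, and its share of the summed RPKM of the pair was 65.8% to 86.5% at 18 h and 29.3% to 80.9% in naïve retinas.

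Psmb10, the inducible trypsin-like subunit, had 99.7, 78.3, 106, 42.7 and 80.7 RPKM in 18 h retinas 1 to 5, against 9.42 to 50.4 (median 41.2) in naïve retinas. Again retina 4 alone overlapped with naïve values. The log2 difference was 1.23 (SE 0.36, adjusted p = 0.044, limma). This call was lost in 9 of 17 alternative settings and with 12 of 28 single retinas left out. With retinas scaled to equal summed RPKM the difference was 0.90 (adjusted p = 0.17, limma). In experiment 1 only it was 1.47 (adjusted p = 0.20, limma).

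Psmb8, the inducible chymotrypsin-like subunit, had 194, 229, 229, 37.7 and 191 RPKM in 18 h retinas 1 to 5, against 57.1 to 107 (median 77.3) in naïve retinas. Retinas 1, 2, 3 and 5 lay above all naïve retinas and retina 4 below all of them. With all retinas the log2 difference was 0.94 (SE 0.34, adjusted p = 0.12, limma). Without 18 h retina 4 it was 1.43 (adjusted p = 0.0020, limma), and without the 7 retinas with few genes it was 1.55 (adjusted p = 0.00023, limma).

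Psmb9 is the inducible counterpart of Psmb6. It had 17.5, 26.4, 21.1, 0.0722 and 24.9 RPKM in 18 h retinas 1 to 5, against 2.09 to 17.3 (median 13.6) in naïve retinas. Retinas 1, 2, 3 and 5 lay just above all naïve values, and retina 4 was near the level of 1 read. The log2 difference was 0.12 with a 95% interval from -1.18 to 1.43 (adjusted p = 0.95, limma), and 1.01 without retina 4 (adjusted p = 0.35, limma).

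In 18 h retina 4, on which the Psmb8 call on the log2 scale depended, 6969 genes reached an RPKM of 1. It also had the highest lymphocyte marker sum of all retinas, with 238 RPKM of Gzma, and none of the 9 neutrophil markers. The part of these in its low Psmb8, Psmb9 and Psme1 values was not tested. Without the 7 retinas with few genes, 4 of 5 members were called higher at 18 h, all but Psmb9, where 4% of all genes were called higher and 4.03% lower.

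At 4 h, before the peak of infiltration, the members moved in different directions. Psme2 was the only DEG among them, with a rise of 1.06 on the log2 scale, and the 3 catalytic subunits had differences below 0 that did not pass the criteria. Of all tested genes, 8.08% were DEGs at 4 h, 3.68% upwards and 4.39% downwards, so 1 call among 5 members is to be read against that share. The median log2 difference was -0.33 over the members and -0.11 over all genes. The 4 h and 18 h comparisons share the same naïve retinas.

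Psme2 had 108 to 477 RPKM (median 144) in the 6 retinas at 4 h. The 3 retinas of experiment 1 had 108, 477 and 300, and the 3 of experiment 2 had 157, 125 and 131. All 6 exceeded the naïve median of 97.8, and 3 exceeded the highest naïve value of 147. The log2 difference was 1.06 (SE 0.33, adjusted p = 0.038, limma). It rested on few retinas: without 4 h retina 2 it was 0.79 (adjusted p = 0.16, limma), without 4 h retina 3 it was 0.92 (adjusted p = 0.12), and without the 7 retinas with few genes 0.63 (adjusted p = 0.080). With retinas scaled to equal summed RPKM it was 0.78 (adjusted p = 0.098, limma), and 9 of 17 alternative settings lost the Psme2 call. Within experiments the difference in Psme2 was 1.60 in experiment 1 (adjusted p = 0.13) and 0.45 in experiment 2 (adjusted p = 0.089), all from limma.

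Psmb8 at 4 h ranged from 29.1 to 83.2 RPKM (median 44.9), and 5 of 6 retinas lay below the lowest naïve value of 57.1. The log2 difference was -0.73 (SE 0.32, adjusted p = 0.18, limma), and with all retinas scaled to the same summed RPKM, which moved the median of all genes to -0.28, it passed the criteria at -1.01 (adjusted p = 0.035). Psmb9 ranged from 2.38 to 8.28 RPKM (median 3.99), below the naïve median of 13.6 in all 6 retinas. Its log2 difference was -1.12 (SE 0.60, adjusted p = 0.30, limma). In experiment 2 alone it was -1.34 (adjusted p = 0.016), and without the retinas with few genes -1.43 (adjusted p = 0.00039), both past the criteria. Psmb10 ranged from 15.6 to 38.1 RPKM (log2 difference -0.33, adjusted p = 0.64, limma). Psme1 ranged from 61.3 to 119 RPKM (log2 difference 0.43, adjusted p = 0.48, limma).

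Between 4 h and 18 h, 3 of the 5 members rose, a pair of immunoproteasome subunits and 1 PA28 subunit. Psmb8 (log2 difference 1.67, SE 0.38, adjusted p = 0.0055), Psmb10 (1.56, SE 0.40, adjusted p = 0.016) and Psme2 (1.28, SE 0.38, adjusted p = 0.043) were higher at 18 h by limma. Among all tested genes, 5.42% were DEGs in this comparison, 2.92% higher and 2.51% lower at 18 h. Psmb10 was higher in all 5 retinas at 18 h than in all 6 at 4 h, and Psmb8 and Psmb9 in 4 of 5, all except retina 4. The differences of Psme1 (1.04, adjusted p = 0.099) and Psmb9 (1.25, adjusted p = 0.41) did not pass the criteria with all retinas. Without 18 h retina 4 both passed, at 1.43 (adjusted p = 0.0069) and 2.13 (adjusted p = 0.036), while Psme2 then did not (1.37, adjusted p = 0.051). The Psme2 call was lost in 7 of 17 alternative settings, where adjusted p-values reached 0.73, and with 13 of 28 single retinas left out. The Psmb10 call was lost in 3 of these settings, where adjusted p-values reached 0.33, and with 2 single retinas left out. For Psmb8 the call was lost in 1 setting, experiment 1 only (1.34, adjusted p = 0.36, limma). Without the 7 retinas with few genes all 5 members were higher at 18 h, by 1.54 to 2.33 on the log2 scale, where 8.59% of all genes were called upwards.

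At 2 weeks, when infiltration has resolved in this model, no member differed from naïve microglia by the criteria, by limma or in any alternative setting, and none had an unadjusted p under 0.05. The background was low, since 0.0076% of tested genes, 1 gene, were DEGs. Psmb8 ranged from 56.1 to 146 RPKM (median 89.3), Psmb9 from 0.359 to 27.0 (median 18.3), Psmb10 from 28.1 to 103 (median 51.3), Psme1 from 41.2 to 124 (median 66.4) and Psme2 from 89.4 to 142 (median 100.1). The 95% intervals of the log2 differences from naïve were -0.29 to 0.96 for Psmb8, -0.98 to 1.38 for Psmb9, -0.064 to 1.27 for Psmb10, -0.41 to 0.80 for Psme1 and -0.33 to 0.95 for Psme2. A remaining rise of 2-fold was thus within the interval for Psmb9 and Psmb10 and outside it for the other 3 genes. For Psmb9, Psmb10 and Psmb8, 4, 4 and 3 of 7 retinas lay above the highest naïve value.

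From 18 h to 2 weeks, Psme2 fell by 2.03 on the log2 scale (SE 0.37, adjusted p = 0.0010, limma) and Psme1 by 1.27 (SE 0.35, adjusted p = 0.043), where 2.65% of all genes were DEGs, 1.1% higher and 1.55% lower at 2 weeks. All 7 values of Psme2 at 2 weeks lay below all 5 at 18 h. Differences for the catalytic subunits were -0.61 for Psmb8, -0.62 for Psmb10 and 0.078 for Psmb9, with adjusted p-values of 0.48, 0.49 and 0.97. Without 18 h retina 4, Psmb8 also passed (-1.10, adjusted p = 0.047, limma). The Psme1 call was lost in 7 of 17 alternative settings and with 16 of 28 single retinas left out. Ordered by median, Psmb8, Psmb9 and Psmb10 ran from 4 h through naïve and 2 weeks to 18 h, Psme2 from naïve through 2 weeks and 4 h to 18 h, and Psme1 from 2 weeks through naïve and 4 h to 18 h. The naïve and 2-week values overlapped for all 5 genes.

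**Figure D2:**
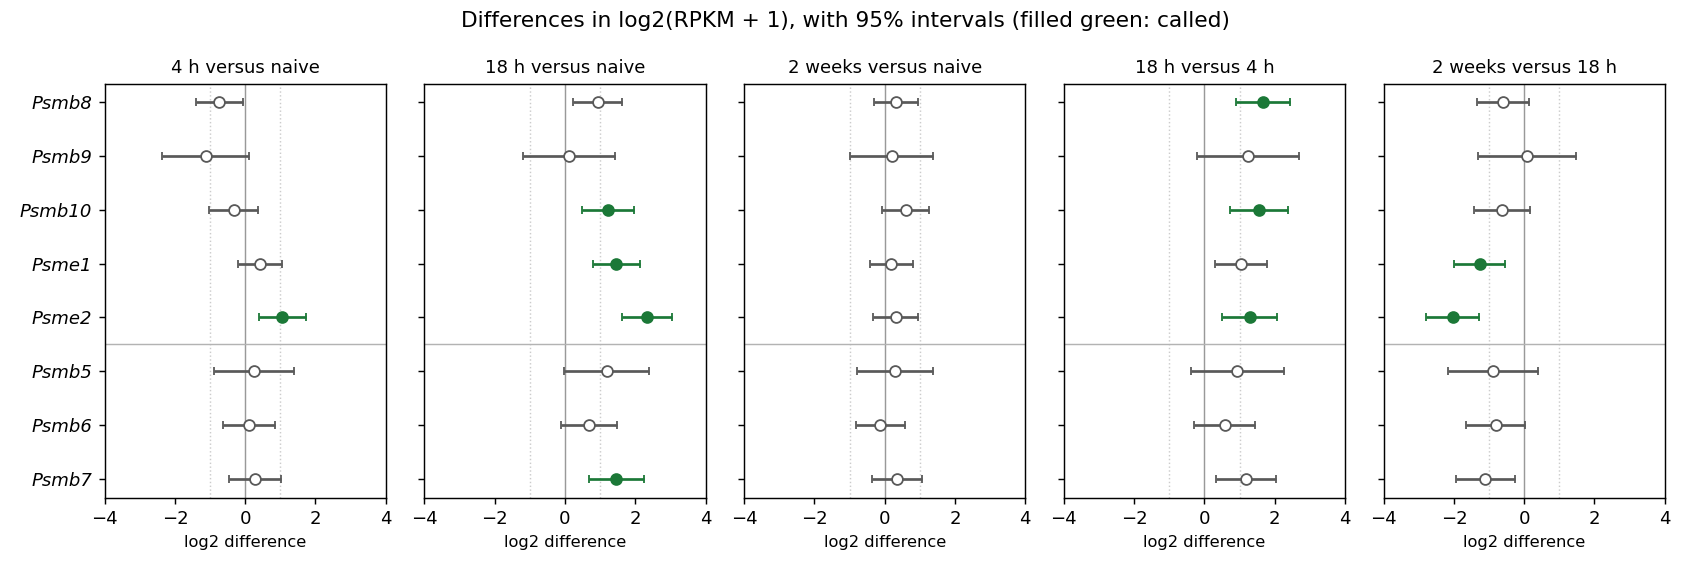
Differences in log2(RPKM + 1) with 95% intervals (x axis) for the 5 members and for Psmb5, Psmb6 and Psmb7 (y axis), in 5 comparisons. Filled green points met the DEG criteria and dotted lines mark a 2-fold change. Psme2 is filled in all panels except 2 weeks versus naïve, where no gene is.

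Each inducible catalytic subunit replaces a particular constitutive one, and the mRNA ratio of each such pair was compared between groups. A ratio within a retina depends little on how that retina was scaled. These are ratios of mRNA and do not measure the exchange of subunits in the core. None of the 12 comparisons of these ratios between groups passed an adjusted p of 0.05. Psmb5, Psmb6 and Psmb7 encode the constitutive chymotrypsin-like, caspase-like and trypsin-like subunits. Psmb7 was itself a DEG at 18 h, at 48.3 ± 12.3 RPKM (n = 5) against 19.2 ± 11.0 (n = 10), with a log2 difference of 1.46 (adjusted p = 0.020, limma). Psmb5 had 177 ± 74.2 RPKM at 18 h against 89.1 ± 47.6 (log2 difference 1.19, adjusted p = 0.29), and Psmb6 had 457 ± 233 against 290 ± 137 (0.69, adjusted p = 0.37).

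Psmb8 made up a median of 46.9% of the summed RPKM of Psmb8 and Psmb5 in naïve retinas (31.2% to 96.3%) and 49.4% at 18 h (43.4% to 55.2%). Expressed as log2((RPKM + 1)/(RPKM + 1)), the ratio of Psmb8 to Psmb5 was 0.18 ± 1.64 (SD, n = 10) in naïve retinas and -0.80 ± 0.91 (n = 6) at 4 h, and it was -0.067 ± 0.25 (n = 5) at 18 h and 0.21 ± 1.42 (n = 7) at 2 weeks. The 18 h retinas were the least spread, and retina 4, low in Psmb8, was low in Psmb5 too (49.1 RPKM against 186 to 230 in the others). The difference between 18 h and naïve retinas was -0.25 (p = 0.82, exact permutation test, two-sided; adjusted p = 0.90 over 12 ratio tests).

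Psmb10 made up a median of 63.4% of its pair with Psmb7 in naïve retinas (42.8% to 90.7%) and 62.6% at 18 h (59.6% to 66.4%). Its log2 ratio was 0.96 ± 1.01 in naïve retinas and 0.35 ± 0.81 at 4 h, and it was 0.72 ± 0.16 at 18 h and 1.21 ± 0.88 at 2 weeks. The difference between 18 h and naïve retinas was -0.23 (exact permutation p = 0.64, adjusted p = 0.84). Psmb9 was the minor partner throughout, at a median of 4.81% of its pair with Psmb6 in naïve retinas and 1.70% at 4 h, against 5.55% at 18 h and 8.57% at 2 weeks.

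Among the 12 comparisons of ratios, the smallest p was that of Psmb9 to Psmb6 at 4 h against naïve, with a log2 difference of -1.23 (exact permutation p = 0.091, adjusted p = 0.69, two-sided). The other ratios at 4 h had differences of -0.98 for Psmb8 to Psmb5 (exact permutation p = 0.21) and -0.61 for Psmb10 to Psmb7 (p = 0.23), both with an adjusted p of 0.69. The SDs within groups ran from 0.16 to 2.57. Naïve ratios differed in level between the experiments. The ratio of Psmb8 to Psmb5 averaged 0.94 in experiment 1 and -0.95 in experiment 2, and that of Psmb9 to Psmb6 -5.15 and -3.55. Within experiment 2 the difference at 4 h was -1.48 for Psmb9 to Psmb6 (exact permutation p = 0.029, the smallest that 3 against 4 retinas allow, adjusted p = 0.086), and within experiment 1 it was -1.30 (p = 0.20, adjusted p = 1).

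**Figure D3:**
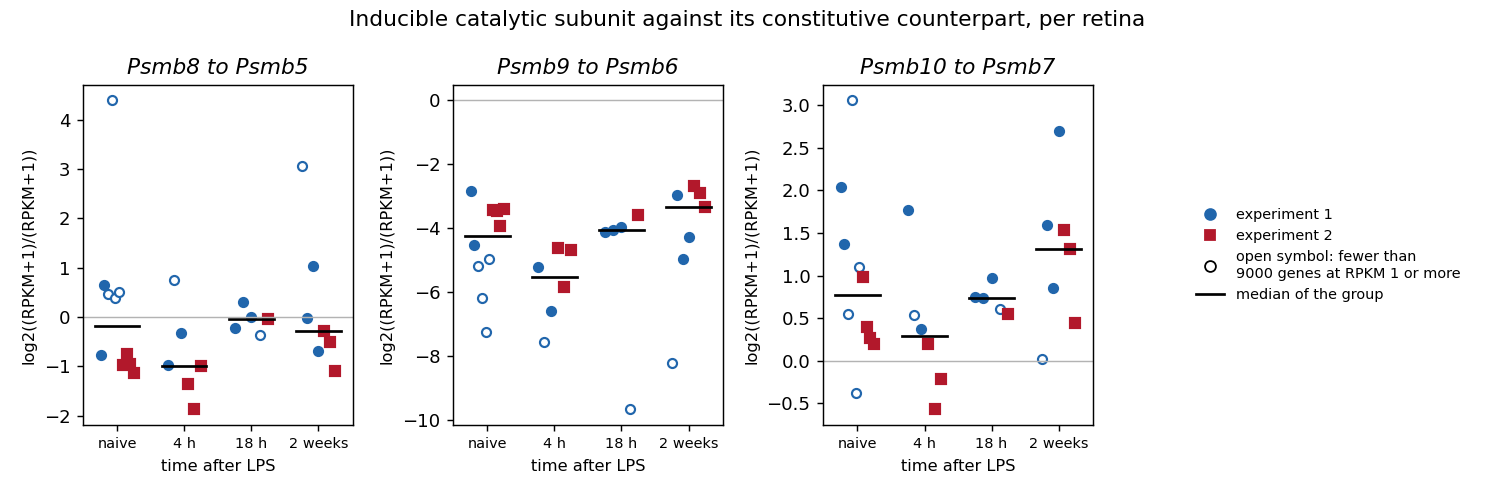
Log2 ratio of each inducible catalytic subunit to its constitutive counterpart in each retina (y axis, log2((RPKM + 1)/(RPKM + 1))) by time after LPS, with symbols by experiment, open for retinas with few genes, and lines at group medians. Groups overlap in all 3 panels, and the points of the naïve and 2-week groups are spread more widely than the 18 h points of Psmb8 to Psmb5 and Psmb10 to Psmb7.

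The remaining proteasome was measured alongside. Of 29 other subunits of the 20S core and 19S cap, 8 were up-regulated and none down-regulated at 18 h, where 2.84% of all genes were up-regulated. Their log2 differences were all above 0, from 0.38 for Psmd8 to 1.90 for Psmc4 (Psmc4 did not pass), with a median of 1.11. The 8 DEGs were the alpha ring subunits Psma1, Psma4 and Psma6 (1.00 to 1.17), the non-catalytic beta subunits Psmb2 (1.24) and Psmb3 (1.55), the ATPases Psmc1 (1.44) and Psmc2 (1.09), and the lid subunit Psmd6 (1.38). The member median of 1.23 was close to these values, and Psme2 was above all of them. With retinas scaled to equal summed RPKM, 2 of the 29 were called, where 1.72% of all genes were called higher. Without the retinas with few genes 15 of the 29 were called, where 4% of all genes were called higher.

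At 4 h none of the 29 subunits was called by limma (2 had an unadjusted p under 0.05), with a median log2 difference of 0.29. At 2 weeks none was called against naïve (0 had an unadjusted p under 0.05), with a median of -0.067. The alpha subunits Psma1, Psma4, Psma5, Psma6 and Psma7 and the lid subunit Psmd6 were higher at 18 h than at 4 h, and 5 of the 29 were lower at 2 weeks than at 18 h. Of all genes, 2.92% were called higher in the former comparison and 1.55% lower in the latter. Of the other core regulators, Psme3 (PA28 gamma), Psme4 (PA200) and Psmf1 (the inhibitor PI31), none was called in any comparison, and 1 had an unadjusted p under 0.05 in 1 of them, 18 h against naïve. Among the 5 assembly chaperones, which include Pomp, the maturation factor of the catalytic subunits, Psmg1 was lower at 4 h (log2 difference -1.24, SE 0.34, adjusted p = 0.014, limma) and higher at 18 h than at 4 h (1.60, adjusted p = 0.012).

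**Figure D4:**
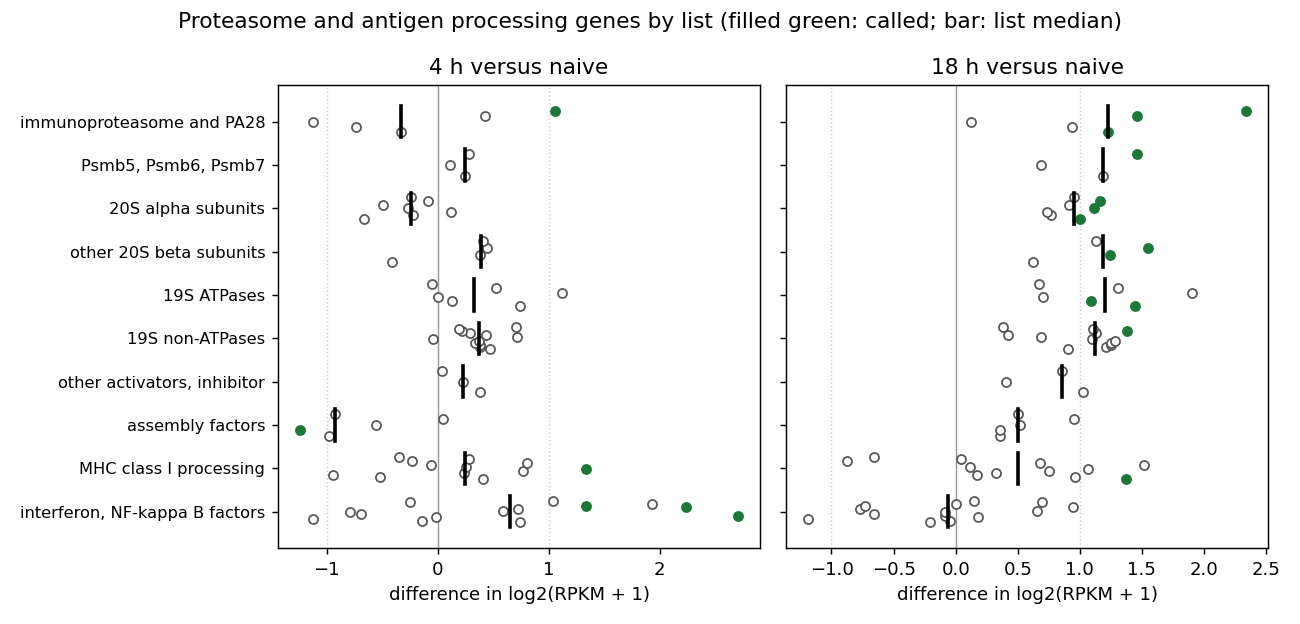
Differences in log2(RPKM + 1) from naïve retinas (x axis) at 4 h (left) and 18 h (right) for each gene of 10 lists (y axis), with filled green points for DEGs and bars at list medians. At 18 h all 29 other 20S and 19S subunits lie above 0, and at 4 h the members spread to both sides of 0.

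Of 12 genes of MHC class I processing, 1 was called at 4 h and 1 at 18 h, both upwards, where 3.68% and 2.84% of all genes were up-regulated. H2-K1, a class I heavy chain, was the DEG at 4 h, at 238 ± 128 RPKM (n = 6) against 92.1 ± 39.8 (n = 10; log2 difference 1.34, adjusted p = 0.0035, limma), and B2m, the class I light chain, was the DEG at 18 h, at 7381 ± 2903 RPKM (n = 5) against 3046 ± 1936 (1.37, adjusted p = 0.039). Calr, a chaperone of class I assembly, was higher at 18 h than at 4 h (1.48, adjusted p = 0.019). Tap1, which shares its start region with Psmb9, had 2.11 ± 2.36 RPKM in naïve retinas, 4.25 ± 3.22 at 4 h and 3.34 ± 1.73 at 18 h, and was not called in any comparison. Tap2 had 5.24 ± 6.99, 3.00 ± 2.97 and 1.21 ± 0.56 RPKM at the same times and was not called either. H2-K1 belongs to a family of near-identical genes, so its value is uncertain.

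Among 14 interferon and NF-kappa B factors, 3 were up-regulated at 4 h, where 3.68% of all genes were up-regulated. None was called at 18 h (4 had an unadjusted p under 0.05, limma), where 2.84% of all genes were up-regulated and 1.85% down-regulated. Irf1, a transcription factor known to drive immunoproteasome genes after interferon, had 13.5 to 99.0 RPKM (median 29.6) at 4 h against 0.0295 to 10.7 (median 7.26) in naïve retinas. All 6 values at 4 h lay above all naïve values, with a log2 difference of 2.71 (SE 0.63, adjusted p = 0.0043, limma). At 18 h it had 5.51 ± 4.12 RPKM, and from 4 h to 18 h it fell by 2.79 on the log2 scale (adjusted p = 0.020). Irf1 thus had its highest group mean at 4 h, and the 5 members had theirs at 18 h. Jak2 (2.24, adjusted p = 0.0037) and Nfkb1 (1.34, adjusted p = 0.0037) were also DEGs at 4 h, and Nfkb1 (-2.07, adjusted p = 0.00028) and Jak1 (-1.49, adjusted p = 0.020) were lower at 18 h than at 4 h. Of all genes, 2.51% were called lower at 18 h than at 4 h. Nlrc5, the class I transactivator, had mean RPKM values between 0.585 and 0.750 in the 4 groups.

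Whether the response differed between the 2 experiments was tested by an interaction term. None of the 5 members had an interaction at 4 h or at 2 weeks (adjusted p = 1 for each, limma), where 0.0988% of all genes had one at 4 h and 0% at 2 weeks. The interaction nearest to the threshold was that of Psme2 at 4 h, at -1.15 for experiment 2 minus experiment 1 with a 95% interval from -2.49 to 0.20 (unadjusted p = 0.091). At 18 h experiment 2 holds 1 retina, retina 5, which had 191, 24.9, 80.7, 211 and 428 RPKM of Psmb8, Psmb9, Psmb10, Psme1 and Psme2, close to 18 h retinas 1 to 3 of experiment 1.

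Across the 28 retinas the members did not vary as 1 unit. As a description over retinas that share libraries and depth, Pearson's r of log2(RPKM + 1) between members ran from 0.0067 for Psmb9 and Psme2 to 0.68 for Psme1 and Psme2, and after subtraction of group means from -0.23 for Psmb10 and Psme2 to 0.62 for Psmb8 and Psme1. The 5 tested genes with the highest correlation with the mean of the standardised members were Vnn3 (r = 0.87, Spearman's rho 0.60), Chaf1b (0.86, rho 0.58), Tspo (0.85, rho 0.72), Phf11d (0.82, rho 0.70) and Cdca7l (0.82, rho 0.55). After subtraction of group means these correlations were 0.74, 0.77, 0.80, 0.70 and 0.61. All 5 were DEGs at 18 h and none at 4 h, which restates in part how they were chosen, since the members were highest at 18 h in the same retinas. Their log2 differences at 18 h ran from 4.14 for Vnn3 (adjusted p = 8.8e-05, limma) to 1.19 for Chaf1b (adjusted p = 0.0064). The genes most like single members were Ostf1 for Psmb8 (r = 0.80), Pgls for Psmb9 (0.88), Tmem14c for Psmb10 (0.91), Clec4a1 for Psme1 (0.86) and Rack1 for Psme2 (0.90).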

How the data were processed

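Microglia mRNA was amplified, sequenced and processed by the authors: reads were trimmed, aligned to mm10 with STAR 2.5.3a, quantified on Ensembl release 89 transcripts by an expectation-maximisation method in Partek, and deposited as RPKM per gene and retina, with the number of alignments. That method can divide reads between similar transcripts, and very low values can be products of it. The authors' deposited tables of DEGs hold their own comparisons (fold changes and p-values) and were not used.

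Tests used log2(RPKM + 1) of the 13164 genes that reached 1 RPKM in 5 or more of the 28 retinas. A single limma fit (3.58.1, R 4.3.3) covered all 4 groups, allowed the variance to follow the mean, and adjusted p-values over these genes (Benjamini-Hochberg). Fold changes on this scale understate those of low genes. Ratios were tested by exact permutation over retinas (Python 3.11.15). Both procedures were tested on simulated data. The members and lists were chosen with earlier results of these data known. Genes named are the members and their counterparts, list genes that were DEGs, the extremes of the other subunits, near-identical copies and the 5 genes most like the mean of the members. Tap1, Tap2, Nlrc5, Gzma, the monocyte markers, Psmb5 in single retinas and the genes most like single members were named after their values were seen. Coordinates are from GENCODE release M21 and promoters from RefSeq. The closing section gives the effect of 17 alternative settings and 28 fits that each left out 1 retina.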

Additional observations from a re-analysis of the deposited data

Results flagged for a closer look

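Values were compared within each group of 5 to 10 retinas for a retina far from all others (Dixon's test), in 32 tests, of which 7 found one. Chance alone gives about 1 in 20 per test. The tests were not independent, since the ratios reuse RPKM values and the same retina can stand apart for several genes. At 18 h, retina 4 stood apart for Psmb8 with 37.7 RPKM against 191 to 229 in the others, for Psmb9 with 0.0722 against 17.5 to 26.4, and for Psme1 with 55.9 against 211 to 238. It also stood apart for the log2 ratio of Psmb9 to Psmb6, at -9.65 against -4.11 to -3.59. At 2 weeks, retina 1 stood apart for Psmb9 with 0.359 RPKM against 12.8 to 27.0 and for its ratio to Psmb6, at -8.21 against -4.95 to -2.69. Among naïve retinas, retina 4 stood apart for the ratio of Psmb8 to Psmb5, at 4.39 against -1.13 to 0.65, where Psmb5 had 4.12 RPKM. All 3 retinas are among the 7 with few genes detected, and the part of that in these values was not tested.

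Psme2 at 2 weeks differed from naïve retinas in opposite directions in the 2 experiments, with a log2 difference of 0.60 in experiment 1 alone and -0.094 in experiment 2 alone. The interaction between experiment and time was -0.69 for Psme2 (unadjusted p = 0.28, adjusted p = 1, limma). For Psme1 the differences were 0.44 and -0.17, with 2-week values on both sides of the naïve mean in experiment 1, and the interaction was -0.62 (unadjusted p = 0.32, adjusted p = 1).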

How the results depend on the processing

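Of the 5 members, 1 was called at 4 h, and 0 were with a pseudocount of 10, no filter, the replicate block, untransformed RPKM, only the groups compared or experiment 1 only. The Psme2 call was lost in 3 further settings, in which another member was called lower instead, Psmb8 with equal summed RPKM and Psmb9 in experiment 2 only and without the retinas with few genes. Leaving out single retinas gave 0 to 1. At 18 h 3 were called, 1 in experiment 1 only, and 2 to 4 with single retinas left out. Psmb8 was also called at 18 h with untransformed RPKM and without the retinas with few genes, where 3.92% and 4% of all genes were called higher. For 18 h against 4 h, 3 were called, but 1 with the replicate block or quantile normalisation, 0 in experiment 1 only, and 5 with untransformed RPKM, in experiment 2 only or without the retinas with few genes, where 4.24%, 2.9% and 8.59% of all genes were called higher (1 to 4 with single retinas left out). For 2 weeks against 18 h, 2 were called, but 1 with no filter, eye side as covariate, the replicate block, equal summed RPKM, quantile normalisation or only the groups compared, and 0 in experiment 1 only (1 to 3 with single retinas left out). The cause of these changes was not tested. The labels do not say whether equal replicate numbers mark paired retinas, and correlations of deviations from group means do not decide it. The 34 same-numbered pairs had correlations from -0.33 to 0.70 (median 0.035). Within an experiment the median was 0.17 for 26 same-numbered pairs and 0.095 for 123 others. Between experiments it was -0.16 for 8 same-numbered pairs and -0.062 for 130 others. Of 28 retinas, 7 matched best with their own number.

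Differences near 0 changed sign. For Psmb9 at 18 h they were -0.30 with a pseudocount of 0.1, -0.13 with equal summed RPKM, and -0.16 to 1.01 with single retinas left out. For 2 weeks against naïve, Psme1 gave -0.17 in experiment 2 only and -0.021 without the retinas with few genes, Psme2 gave -0.094 in experiment 2 only, and Psmb9 gave -0.0091 to 0.75 with single retinas left out. For Psmb9 at 2 weeks against 18 h they were -0.053 with a pseudocount of 10, -0.11 with experiment as covariate, -0.16 with the replicate block, -0.16 with untransformed RPKM, -0.051 in experiment 1 only, -0.45 in experiment 2 only, -0.26 without the retinas with few genes, and -0.81 to 0.63 with single retinas left out. The ratio of Psmb8 to Psmb5 at 2 weeks gave -0.089 in experiment 1 only, -0.11 for medians, -0.45 with the replicate block and -0.44 to 0.50 with single retinas left out, and at 18 h 0.15 for medians, 0.67 without the retinas with few genes and -0.39 to 0.22 with single retinas left out. The ratio of Psmb9 to Psmb6 at 18 h gave 0.18 for medians, 0.12 with the replicate block and -0.93 to 0.58 with single retinas left out. The ratio of Psmb10 to Psmb7 gave -0.038 at 2 weeks with the replicate block and -0.13 for 18 h against 4 h in experiment 1 only. No ratio passed in any setting.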
